A study of Mus musculus with 7 samples.

Results

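Proteins are folded, exported and checked in the endoplasmic reticulum (ER), and the unfolded protein response (UPR) adjusts that capacity; 43 genes of this system were followed in spleen cells of Foxp1 conditional knockout and wild type mice. They were taken by symbol from a table of 23845 rows: 43 of 43 were found once, with valid estimates in every library, and 42 had a mean of at least 1 FPKM (fragments mapped to a transcript, scaled to its length and to the library) and were tested among 10065 rows. The study profiled 4 libraries of CD19creFoxp1 cKO mice and 3 of wild type mice, all on the C57Bl/6 background, by RNA-seq of total RNA from spleen cells depleted of CD43-bearing cells with magnets. In the conditional knockout, Cre made in B lineage cells removes floxed Foxp1, a forkhead repressor and activator of B cell development. The labels name no wild type control that carries Cre, give no age or sex, and do not say whether each library came from a separate animal, so the p-values measure the spread between these libraries. The labels also give the sequencing lane: cKO libraries 2 and 3 and wild type library 1 were read in lane 7, and cKO libraries 1 and 4 and wild type libraries 2 and 3 in lane 5.

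Secreted and surface proteins, antibodies among them, enter the ER through the Sec61 channel, lose their signal peptide to the signal peptidase, fold with BiP and other chaperones, gain disulfide bonds from protein disulfide isomerases, and are pulled back to the cytosol for degradation (ER-associated degradation, ERAD) when folding fails. Unfolded protein in the ER is sensed by IRE1, ATF6 and PERK, which raise chaperone, ERAD and amino acid supply genes through the transcription factors XBP1, ATF6 and ATF4. B cells at rest run this system at a basal level, and it expands many-fold when they become plasma cells, under XBP1.

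Some of these genes share a promoter sequence. Of the 43 genes, 34 were matched in a table of RefSeq promoters (build GRCm38.p6, 250 bases before to 50 bases after each start). Both strands were searched for the ER stress element (ERSE: CCAAT, 9 bases of any kind, then CCACG), the site of ATF6 with NF-Y. It was present in 8 of 34 genes (23.5%), against 37 of the 27025 genes in the promoter table (0.137%). The genes were chosen as ER and UPR genes, so the larger share describes that choice and is not a test. The 9 matches in those 8 genes are shown because they are the motif most often found in the set, in 6 chaperone genes, Pdia6 and Derl3; each is written on its own motif strand, with the fixed letters in capitals and the free spacer in lower case.
Hspa5, 65 to 47 bases before the start: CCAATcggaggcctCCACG
Calr, 162 to 144 bases before: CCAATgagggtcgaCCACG
Canx, 145 to 127 bases before: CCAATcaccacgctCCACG
Hsp90b1, 212 to 194 bases before: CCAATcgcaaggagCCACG
Hsp90b1, 107 to 89 bases before: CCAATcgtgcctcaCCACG
Creld2, 126 to 108 bases before: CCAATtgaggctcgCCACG
Dnajc3, 105 to 87 bases before: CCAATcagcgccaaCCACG
Pdia6, 98 to 80 bases before: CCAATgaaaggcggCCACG
Derl3, 156 to 138 bases before: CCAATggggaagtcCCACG

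The related element ERSE-II (ATTGG, 1 base, CCACG) was found in Herpud1 (ATTGGgCCACG) and Dnajb11 (ATTGGcCCACG), that is 2 of 34 genes against 0.0444% of all genes in the table. The UPR element TGACGTGG, a site of XBP1 and ATF6, was found in Txndc5, at 1 of its 3 listed starts, 1 of 34 genes against 0.714% of all genes. In all, 11 of the 34 genes held at least 1 of the 3 motifs and 23 held none, and none held more than 1 kind, so no match overlapped another kind. The matches are descriptions of these letters in this window and do not show that a factor bound there.

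The targeted gene separated the genotypes. Foxp1 had 21.3, 18.9, 18.4 and 29.0 FPKM in cKO libraries 1 to 4, against 33.4, 38.3 and 42.7 FPKM in wild type libraries 1 to 3, and the groups did not overlap (log2 fold change -0.81, adjusted p 0.159 in limma, -0.75 and 0.0104 with lane as a term). Which exons Cre removes is not given in the sources used here. The number of rows at 1 FPKM or more was 9598 to 10419 in cKO libraries and 9488 to 9738 in wild type libraries; sequencing depth is unknown, since FPKM keep no counts. Over all 10065 rows tested, 128 (1.27%) were called higher and 5 (0.0497%) lower in cKO at an adjusted p under 0.05, and with lane as a term 965 (9.59%) were called higher and 120 (1.19%) lower. After centring each library on its median, the lane-term fit called 952 higher and 1276 lower.

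The libraries held RNA of several cell types, and markers of these types differed with the genotype. All 10 B cell markers had negative log2 fold changes (median -0.59), with summed levels of 1341 to 2197 FPKM in cKO and 2246 to 2741 FPKM in wild type libraries, while all 10 monocyte and macrophage markers were positive (median 1.74) with sums of 776 to 1026 FPKM in cKO and 235 to 339 FPKM in wild type. Neutrophil markers (6 of 6 tested positive, sums of 84.0 to 187 FPKM in cKO and 27.2 to 40.0 FPKM in wild type) and NK cell markers (6 of 6 positive, 34.5 to 75.2 FPKM in cKO and 15.4 to 19.1 FPKM in wild type) were positive too. So were 5 of 6 T cell, 4 of 5 plasmacytoid dendritic cell, 5 of 5 platelet and 6 of 6 proliferation markers. The sums of each of these last lists overlapped between genotypes. Erythroid markers were called higher in lane 7 for 8 of 8 genes and by genotype for 0 of 8 in either fit, with all 8 genotype values positive, summing to 110 to 2593 FPKM in cKO and 85.4 to 883 FPKM in wild type libraries. In these bulk samples, fewer cells of a type and less RNA per cell cannot be told apart, and the part of other cell types in the results below was not tested. Plasma cell markers, the ones most tied to ER genes, split 4 positive and 4 negative of 8 tested (median -0.10), summing to 232 to 312 FPKM in cKO and 195 to 215 FPKM in wild type. Among the 9 listed, Tnfrsf17 was at most 0.252 FPKM in every library and was too low to test. Sdc1 ran from 3.93 to 6.63 FPKM over the libraries and Igj from 2.55 to 50.4 FPKM. Without Fam46c, left out after its values were seen (83.8, 158, 211 and 20.4 FPKM in cKO and 81.6, 27.4 and 18.0 FPKM in wild type libraries), the sums were 78.3 to 212 FPKM in cKO and 124 to 188 FPKM in wild type, and overlapped.

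The ER genes were expressed in both genotypes. Levels in FPKM, which are per length, ran over the 43 genes from a mean of 0.507 FPKM for Creb3l2, a membrane-bound transcription factor that was too low to test, to 175 FPKM for Hspa5, which encodes the chaperone BiP. The order below Hspa5 was Calr at 145 FPKM, Atf4 at 103 FPKM, Mzb1 at 97.2 FPKM and Hsp90b1 at 89.4 FPKM. Summed over the 43 genes, the level was 1767, 1214, 1558 and 2031 FPKM in cKO libraries 1 to 4, and 1540, 1762 and 1751 FPKM in wild type libraries 1 to 3. These sums overlapped between genotypes, and the lowest sums of each genotype came from lane 7.

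Few of these genes passed the test between genotypes. Without a lane term, 0 of 42 were called higher and 1 was called lower, Fkbp11; 0 of 42 higher stands beside 1.27% of all rows and 1 of 42 lower beside 0.0497%. With lane as a term, Herpud1 and Ern1 were called higher and Fkbp11 and Mzb1 lower, 2 of 42 in each direction against 9.59% and 1.19% of all rows. Of the rest, most sat close to no difference: 33 of 42 had a log2 fold change within 0.25 of zero without the lane term, and 30 of 42 with it. The median over the 42 genes was -0.02 (all rows -0.09) without the lane term and 0.04 (all rows -0.00) with it, and the split of 27 positive and 15 negative genes with the lane term turned to 13 positive and 29 negative after median centring. The 95% confidence interval of a single gene reached 0.59 to either side in the median without the lane term and 0.37 with it. It lay wholly inside a log2 difference of 1 in either direction for 31 of the 42 genes without the lane term and 39 with it. Single genes could not pass 0.05 in an exact permutation test, whose smallest two-sided p over 35 splits is 0.0571.

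**Figure D1:**
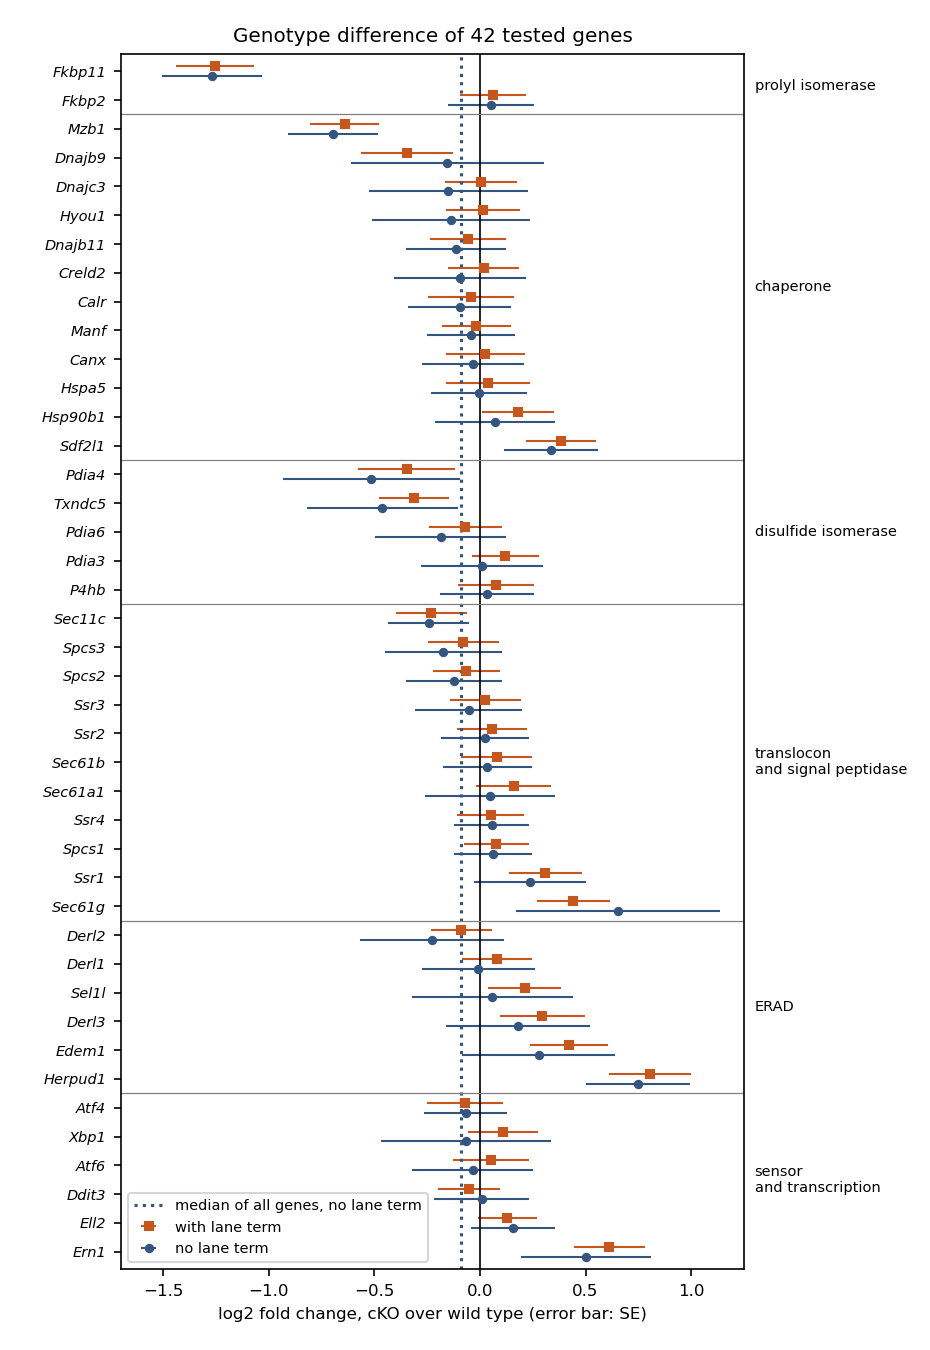
Log2 fold change of cKO over wild type on the log2(FPKM + 0.5) scale for the 42 tested genes, by role, without (circles) and with (squares) lane as a term; bars are standard errors and the dotted line is the median of all rows without the lane term, -0.09. Fkbp11 at -1.27 and Mzb1 at -0.70 stand to the left and Herpud1 at 0.75 to the right of a column of genes near zero.

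The largest difference was in Fkbp11, a membrane-anchored ER member of the FK506-binding family, which speed the turning of proline bonds during folding; in the mouse it is known as a secretory gene raised in plasma cells. Fkbp11 (chr15:98724368-98728198, GRCm38, minus strand) had 1.29, 0.747, 1.03 and 0.896 FPKM in cKO libraries 1 to 4, against 3.24, 3.53 and 2.48 FPKM in wild type libraries 1 to 3. The highest cKO library lay below the lowest wild type library, in both lanes. The means were 0.989 ± 0.229 FPKM in cKO (SD, n = 4) and 3.08 ± 0.539 FPKM in wild type (SD, n = 3), a log2 fold change of -1.27 (SE 0.24, adjusted p 0.0484 in limma over 10065 rows). With lane as a term it was -1.26 (SE 0.19, adjusted p 0.00124), and the difference was -1.44 between the lane 7 libraries and -1.13 between the lane 5 libraries. Without the lane term the call was lost when any 1 of the 7 libraries was left out (adjusted p 0.0595 to 0.325); with it the call remained in 7 of 7 (adjusted p at most 0.0114). The cKO mean lies just below the 1 FPKM filter, so the gene was tested only through its wild type libraries, where it is high. The level in cKO is also close to the pseudocount of 0.5, which makes the log2 scale understate the fold. The RefSeq table lists a pair of Fkbp11 start sites, and neither promoter held any of the 3 motifs; the upstream one is shown as the promoter of the gene that changed most.
Fkbp11, GRCm38.p6 chr15:98728149-98728448, minus strand, 5′ to 3′: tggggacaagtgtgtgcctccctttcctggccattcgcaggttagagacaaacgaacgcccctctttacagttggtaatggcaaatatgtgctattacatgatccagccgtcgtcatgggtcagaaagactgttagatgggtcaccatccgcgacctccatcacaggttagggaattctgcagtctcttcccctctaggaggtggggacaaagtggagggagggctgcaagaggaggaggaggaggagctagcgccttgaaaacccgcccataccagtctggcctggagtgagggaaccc

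Its family member Fkbp2, a soluble ER prolyl isomerase, had 12.3, 9.43, 13.7 and 11.5 FPKM in cKO libraries, against 11.0, 11.4 and 11.3 FPKM in wild type libraries. Its groups overlapped, with a log2 fold change of 0.05 and a 95% interval of -0.41 to 0.52 (adjusted p 0.962 in limma). The interval of Fkbp2 does not meet that of Fkbp11, which ran from -1.81 to -0.73; the difference between the genes was not itself tested.

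Among the 12 chaperones and co-chaperones, 2 log2 fold changes were positive and 10 negative without the lane term (median -0.10). In that fit 0 were called, where 1.27% of all rows were called higher and 0.0497% lower. With lane as a term the median was 0.01 and 1 was called lower, where 1.19% of all rows were. The called gene was Mzb1 (pERp1), a B cell ER protein that helps assemble and secrete IgM in marginal zone and B-1 cells. Mzb1 had 86.1, 66.6, 64.5 and 90.8 FPKM in cKO libraries 1 to 4, against 113, 137 and 123 FPKM in wild type libraries 1 to 3. Every cKO library lay below every wild type library, with the lane 7 cKO libraries lowest. The means were 77.0 ± 13.4 FPKM (SD, n = 4) in cKO and 124 ± 12.3 FPKM (SD, n = 3) in wild type. The log2 fold change was -0.70 (SE 0.21, adjusted p 0.214 in limma) without the lane term and -0.64 (SE 0.16, adjusted p 0.029) with it, -0.78 within lane 7 and -0.55 within lane 5. With the lane term the call ended without cKO library 1 or 3 or any 1 of the wild type libraries (adjusted p 0.0754 to 0.25). Mzb1 is itself a gene of B cells, and its log2 fold change of -0.70 lies beside the median of -0.59 over the 10 B cell markers and -0.75 for Cd79b, a chain of the B cell receptor. The annotation puts 57.2% of its exon bases under a same-strand model named SPATA24, so how fragments were shared between the models is uncertain.

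The general chaperones were not called in either fit. Hspa5, the BiP gene and the usual readout of the UPR, had 185, 129, 189 and 199 FPKM in cKO libraries, against 160.0, 173 and 189 FPKM in wild type libraries. The groups overlapped, cKO library 2 being the lowest and cKO library 4 the highest of all 7, and the log2 fold change was -0.00 with a 95% interval of -0.52 to 0.51. Sdf2l1, a stress-induced partner of ERdj3 that keeps misfolded clients soluble, had the largest positive value of the group, with 28.4, 18.3, 27.4 and 26.5 FPKM in cKO libraries and 17.1, 21.6 and 20.3 FPKM in wild type libraries. Only cKO library 2 fell inside the wild type range, and the log2 fold change of 0.33 (SE 0.22) did not pass the threshold (adjusted p 0.75 in limma, 0.193 with lane as a term). The remaining chaperones, among them the ER HSP90 Hsp90b1, the lectin chaperones Calr and Canx, the BiP exchange factor Hyou1 and the J-domain genes Dnajb9, Dnajb11 and Dnajc3, lay between -0.15 and 0.07 on the log2 scale.

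None of the 8 genes with an ERSE, Hspa5 among them, was called by genotype. Their log2 fold changes lay between -0.19 and 0.18 without the lane term, and 0 of the 8 were called in either fit. Over all rows 1.27% were called higher and 0.0497% lower without the lane term, and 9.59% and 1.19% with it. With shares this small, a count of 0 among 8 genes does not set them apart. The promoter of Hspa5 is given because it is the standard ERSE promoter and its gene the most abundant of the set; the element is in capitals.
Hspa5, GRCm38.p6 chr2:34771840-34772139, plus strand, 5′ to 3′: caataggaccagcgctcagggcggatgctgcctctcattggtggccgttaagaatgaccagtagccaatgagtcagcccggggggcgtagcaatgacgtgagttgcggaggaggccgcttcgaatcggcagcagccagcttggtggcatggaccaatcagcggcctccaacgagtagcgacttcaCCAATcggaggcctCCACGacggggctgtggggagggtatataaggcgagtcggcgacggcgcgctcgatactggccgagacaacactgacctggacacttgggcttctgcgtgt

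The 5 protein disulfide isomerases had 2 positive and 3 negative values (median -0.19, and -0.07 with lane as a term). Of these 5, 0 were called in either fit, against 1.27% higher and 0.0497% lower of all rows, and 9.59% and 1.19% with lane. Pdia4 (ERp72), an oxidoreductase that works with BiP, was the most abundant and the most negative. It had 82.3, 32.6, 51.8 and 119.9 FPKM in cKO libraries, against 69.1, 112 and 99.3 FPKM in wild type libraries. The lane 7 libraries of both genotypes were lowest, cKO library 4 was the highest of all 7, and the log2 fold change of -0.51 (SE 0.42, adjusted p 0.86 in limma) shrank to -0.35 with lane as a term. P4hb, the founding disulfide isomerase PDI, had 58.6, 43.7, 58.7 and 74.1 FPKM in cKO and 54.5, 60.4 and 54.6 FPKM in wild type libraries, with overlapping groups and a log2 fold change of 0.03 (95% interval -0.47 to 0.54). Pdia3 (ERp57), the partner of the lectin chaperones, and Pdia6 (P5) were at 0.01 and -0.19. Txndc5, an ER oxidoreductase with TGACGTGG at 1 of 3 listed starts, had 43.4, 20.0, 24.1 and 50.9 FPKM in cKO and 33.2, 53.8 and 49.3 FPKM in wild type libraries. Its log2 fold change of -0.46 (-0.31 with lane as a term) did not pass in either fit, and it passed only when library scaling (median centring or quantile normalization) and the lane term were used together.

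A group of 11 genes covers the Sec61 translocon, the translocon-associated TRAP complex (Ssr1 to Ssr4) and the signal peptidase (Sec11c and Spcs1 to Spcs3). It had 7 positive and 4 negative values and a median of 0.04. Of these 11, 0 were called in either fit, against 1.27% higher and 0.0497% lower of all rows, and 9.59% and 1.19% with lane. Ssr4, the most abundant and a subunit of TRAP, had 64.4, 68.4, 68.5 and 75.0 FPKM in cKO libraries and 70.1, 66.8 and 62.4 FPKM in wild type libraries, a difference of 0.06 (95% interval -0.35 to 0.46). Sec11c, a catalytic subunit of the signal peptidase, had the lowest value of the group. It had 60.1, 60.8, 53.8 and 73.1 FPKM in cKO and 77.9, 70.8 and 70.3 FPKM in wild type libraries, and only cKO library 4 reached the wild type range (log2 fold change -0.24, adjusted p 0.847 in limma). Sec61g, the small gamma subunit of the channel, had the highest, 0.65 (SE 0.48, adjusted p 0.808). Its levels sorted by lane: 6.35 and 5.96 FPKM in the lane 7 cKO libraries and 3.63 FPKM in the lane 7 wild type library, against 2.42 and 1.57 FPKM and 1.55 and 1.50 FPKM in the lane 5 libraries of the same genotypes. With lane as a term the value was 0.44 (adjusted p 0.145). The remaining 8, which include the channel subunits Sec61a1 and Sec61b, lay between -0.17 for Spcs3 and 0.24 for Ssr1.

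The degradation genes held the clearest positive value. Of the 6 ERAD genes, 4 were positive and 2 negative (median 0.12, and 0.25 with lane as a term). Herpud1 (chr8:94386500-94395358, GRCm38, plus strand) encodes a membrane protein that organises the HRD1 ubiquitin ligase complex and is raised by the UPR. It had 95.2, 70.0, 86.4 and 135 FPKM in cKO libraries 1 to 4, against 54.1, 56.7 and 56.3 FPKM in wild type libraries 1 to 3. All 4 cKO libraries lay above all 3 wild type libraries, which were within 3 FPKM of each other, and cKO library 4 stood highest. The means were 96.6 ± 27.5 FPKM (SD, n = 4) in cKO and 55.7 ± 1.41 FPKM (SD, n = 3) in wild type, a log2 fold change of 0.75 (SE 0.25, adjusted p 0.259 in limma). With lane as a term it was 0.81 (SE 0.19, adjusted p 0.0208), 0.52 within lane 7 and 1.00 within lane 5. That call ended without cKO library 3, wild type library 2 or wild type library 3 (adjusted p 0.0637 to 0.0835). Its promoter, with ERSE-II in capitals, is shown as that of the gene with the highest log2 fold change of the set.
Herpud1, GRCm38.p6 chr8:94386179-94386478, plus strand, 5′ to 3′: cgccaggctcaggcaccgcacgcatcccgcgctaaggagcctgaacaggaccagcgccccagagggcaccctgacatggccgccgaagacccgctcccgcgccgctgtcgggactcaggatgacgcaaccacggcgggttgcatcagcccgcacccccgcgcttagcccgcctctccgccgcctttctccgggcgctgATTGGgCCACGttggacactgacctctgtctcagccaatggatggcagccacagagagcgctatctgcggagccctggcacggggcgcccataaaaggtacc

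The other ERAD genes did not follow Herpud1 past the threshold. Edem1, a lectin that hands trimmed glycoproteins to the ligase, had 24.1, 11.4, 14.3 and 32.3 FPKM in cKO and 12.2, 17.8 and 17.1 FPKM in wild type libraries, with overlapping groups and a log2 fold change of 0.28 (0.42 with lane as a term, adjusted p 0.194 in limma). Derl2, a rhomboid-like channel protein, had the lowest value, with 8.75, 4.43, 5.33 and 10.2 FPKM in cKO and 5.57, 9.31 and 9.96 FPKM in wild type libraries (-0.23, and -0.09 with a 95% interval of -0.41 to 0.23 with lane as a term). Sel1l, the adaptor of HRD1, and Derl1 and Derl3 had log2 fold changes of 0.06, -0.01 and 0.18. Counting genes whose genotypes did not overlap gives 1 of 42 with cKO above (Herpud1) and 2 of 42 with cKO below (Fkbp11 and Mzb1), against 7.99% and 2.14% of all rows. The exact permutation p was 0.0571 for each of the 3, the smallest the design allows.

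**Figure D2:**
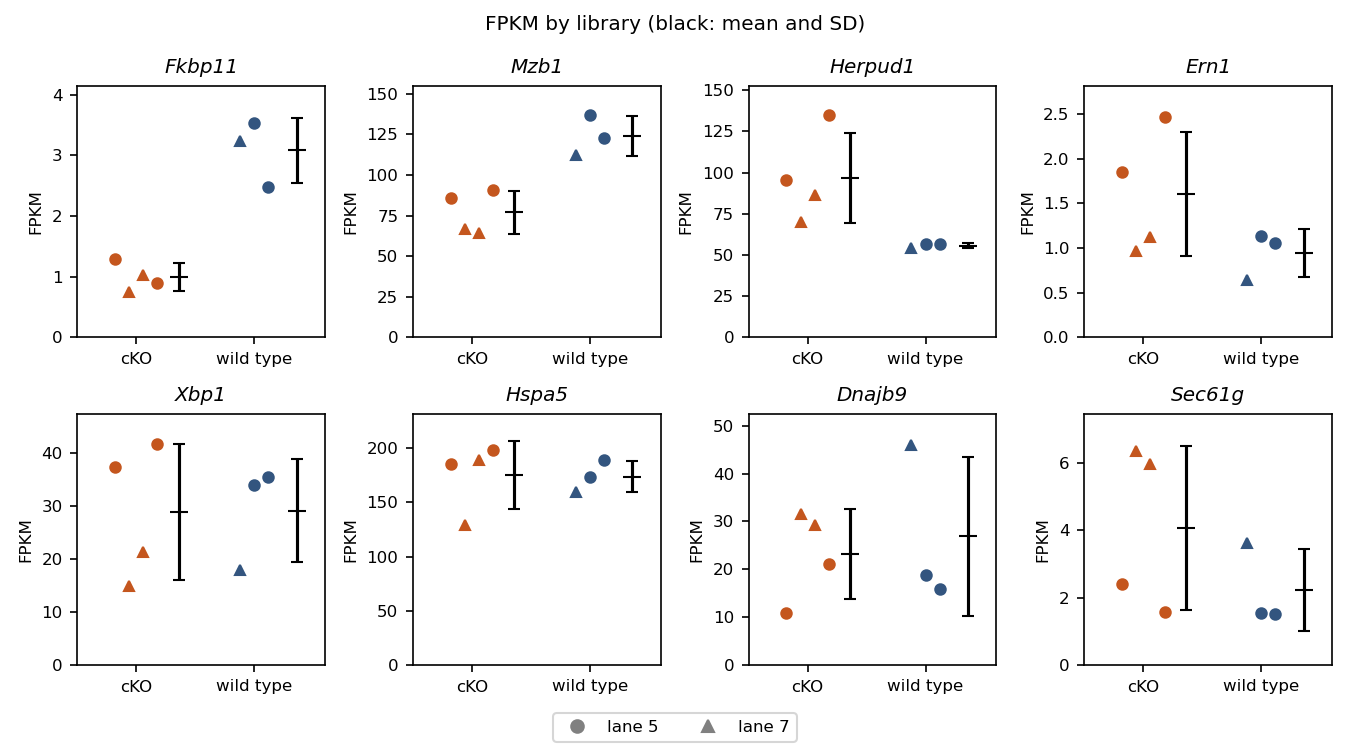
FPKM of 8 genes in each library, cKO at left and wild type at right, circles for lane 5 and triangles for lane 7; the black bar is the mean with its SD (n = 4 cKO, n = 3 wild type). Fkbp11 and Mzb1 lie lower and Herpud1 higher in every cKO library, Hspa5 overlaps, and Xbp1, Dnajb9 and Sec61g sort by lane.

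Of the sensors and transcription factors, Ern1 was called with the lane term and none without it. Ern1 (chr11:106397620-106487796, GRCm38) encodes IRE1 alpha, the ER kinase and nuclease that splices Xbp1 mRNA. It was low, with 1.86, 0.971, 1.12 and 2.47 FPKM in cKO libraries, against 0.641, 1.13 and 1.06 FPKM in wild type libraries. The lane 5 cKO libraries were highest and the lane 7 cKO libraries fell inside the wild type range. The wild type mean lay below the 1 FPKM filter, so Ern1 was tested only through its cKO libraries, where it is higher. The means were 1.61 ± 0.696 FPKM (SD, n = 4) in cKO and 0.944 ± 0.265 FPKM (SD, n = 3) in wild type, and the log2 fold change was 0.50 (SE 0.31, adjusted p 0.698 in limma), and 0.61 (SE 0.17, adjusted p 0.0401) with lane as a term. The call was lost without cKO library 3 or any 1 of the wild type libraries (adjusted p 0.0801 to 0.126), and with quantile normalization added.

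Its target Xbp1, the factor that expands the secretory system, was not called in either fit. Xbp1 had 37.3, 14.8, 21.3 and 41.7 FPKM in cKO libraries, against 17.8, 33.9 and 35.3 FPKM in wild type libraries. The 3 lane 7 libraries were the 3 lowest, whatever the genotype, and the log2 fold change was -0.07 (95% interval -0.98 to 0.85) without the lane term and 0.11 (-0.26 to 0.47) with it. Gene-level FPKM do not separate spliced from unspliced Xbp1. Atf6, the sensor whose freed cytosolic part binds the ERSE, had 11.3, 6.77, 9.08 and 15.5 FPKM in cKO and 9.26, 11.1 and 11.1 FPKM in wild type libraries (log2 fold change -0.04). Atf4, which drives amino acid and redox genes downstream of PERK, had 93.5, 86.7, 112 and 112 FPKM in cKO and 113, 105 and 98.7 FPKM in wild type libraries (-0.07). Ddit3 (CHOP), the pro-death factor of the same branch, had 11.5, 12.7, 13.9 and 11.8 FPKM in cKO and 16.4, 10.8 and 10.6 FPKM in wild type libraries (0.01). The groups of all 3 overlapped, and their 95% intervals reached from -0.68 to 0.61, -0.52 to 0.38 and -0.50 to 0.52. Ell2, an elongation factor that shifts immunoglobulin mRNA to the secreted form in plasma cells, had a log2 fold change of 0.16 (adjusted p 0.918). Creb3l2 was listed between 0.348 and 0.757 FPKM.

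More of the genes were called between lanes than between genotypes. In the fit that holds both, lane 7 minus lane 5, 20 of the 42 genes were called lower and 2 higher in lane 7, where 58.2% of all rows were called lower and 8.67% higher, and the median was -0.35 for these genes and -0.50 for all rows. The counts depended on scaling. After median centring 8 were lower and 11 higher, where 23.9% of all rows were lower and 24.3% higher, with a median of 0.15 (all rows -0.01). After quantile normalization 16 were lower and 5 higher, where 30.1% of all rows were lower and 18.0% higher, with a median of -0.22 (all rows -0.10). The share of lower calls was thus below that of all rows as deposited and after centring, and above it after quantile normalization. The 8 that stayed lower under centring were Xbp1, Pdia4, Dnajc3, Sel1l, Hyou1, Txndc5, Edem1 and Derl2. Whether the lanes differ by preparation or by sequencing is not given in the sources used here, and cell type markers differed between the lanes too. Erythroid markers (8 of 8) and proliferation markers (6 of 6) had positive lane differences under all 3 scalings, while 8 of 10 B cell markers were called lower as deposited, 7 with quantile normalization and 2 after centring. Their part in the lane difference was not tested.

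**Figure D3:**
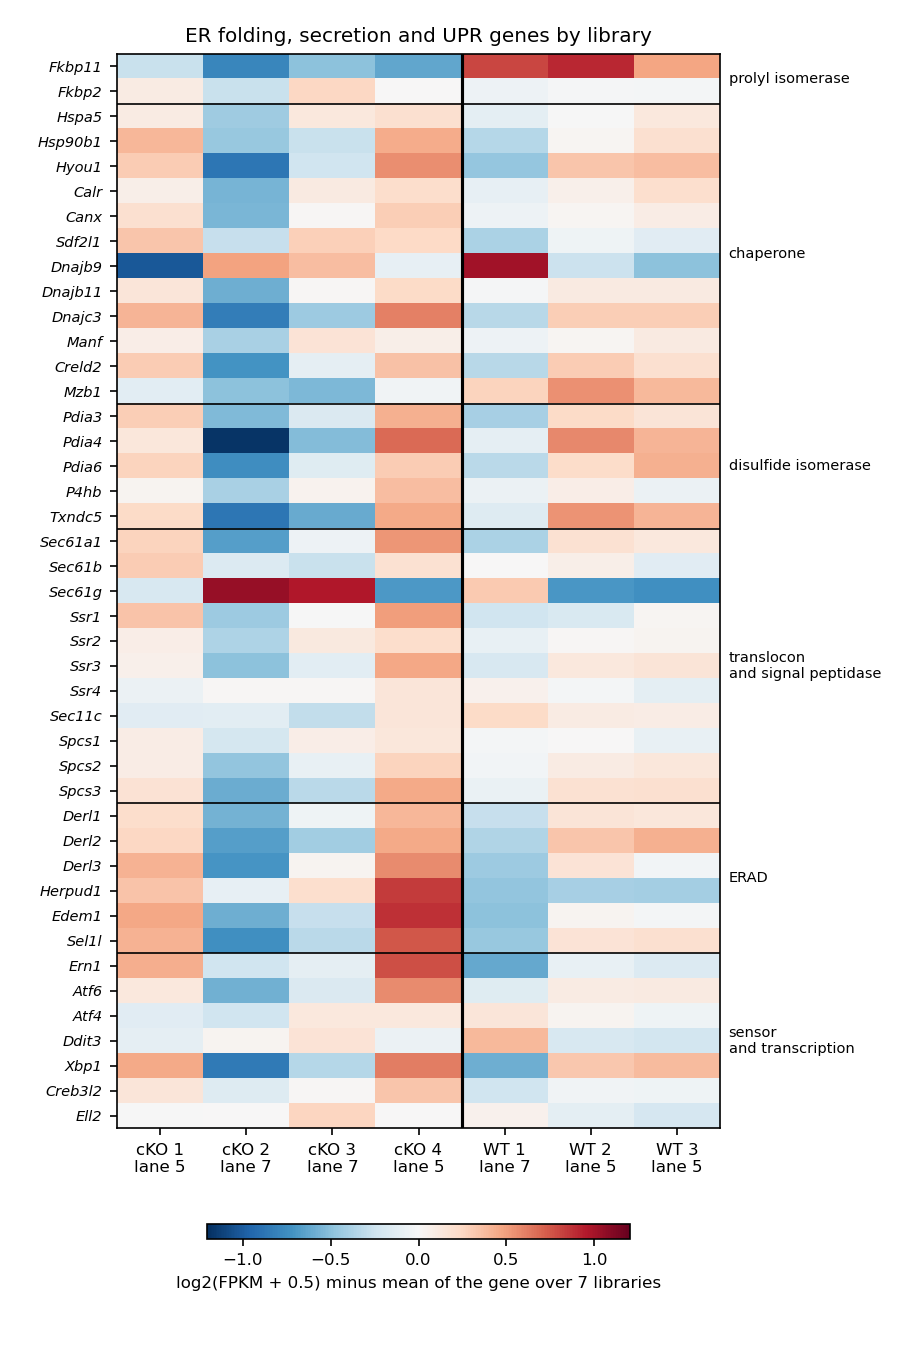
Log2(FPKM + 0.5) of the 43 genes minus each gene's mean over the 7 libraries, red above and blue below, with cKO libraries left of the line and wild type right of it. cKO library 2 and, less so, wild type library 1, both from lane 7, are blue for most chaperone, disulfide isomerase and ERAD genes. cKO library 3, also from lane 7, is blue for most disulfide isomerase and ERAD genes but not for most chaperones. Sec61g and Dnajb9 are red in these lane 7 libraries, and Fkbp11 and Mzb1 change colour at the line instead.

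Xbp1 showed the largest lane difference among the lower genes. It had 14.8 and 21.3 FPKM in the lane 7 cKO libraries and 17.8 FPKM in the lane 7 wild type library, against 37.3 and 41.7 FPKM and 33.9 and 35.3 FPKM in the lane 5 libraries of the same genotypes. The lanes did not overlap, and lane 7 minus lane 5 was -1.05 (SE 0.17, adjusted p 0.000623 in limma) and -0.56 after median centring. Pdia4 (-0.999), Dnajc3 (-0.94), which encodes the co-chaperone and kinase inhibitor p58IPK, and Sel1l (-0.92) came next. Dnajb9 (ERdj4), a co-chaperone that holds IRE1 in check and is a known XBP1 target, went the other way. It had 31.7 and 29.3 FPKM in the lane 7 cKO libraries and 46.0 FPKM in the lane 7 wild type library, against 10.9 and 21.1 FPKM and 18.8 and 15.9 FPKM in the lane 5 libraries. Every lane 7 library was above every lane 5 library, with a lane difference of 1.14 (adjusted p 0.00141) that was 1.64 after median centring. Sec61g stood beside it at 1.28 (adjusted p 0.000359), 1.77 after centring. All 8 genes with an ERSE had negative lane differences, between -0.94 and -0.25, of which 5 were called lower, where 82.5% of all rows were negative and 58.2% called lower. After median centring 1 of the 8, Dnajc3, was called lower and Hspa5, Calr and Canx turned positive (0.25, 0.19 and 0.14). The 3 that changed most with genotype, Fkbp11 (-0.07), Mzb1 (-0.34) and Herpud1 (-0.35), were not called by lane as deposited or after centring; with quantile normalization Mzb1 was called lower in lane 7 (-0.34, adjusted p 0.0453 in limma).

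**Figure D4:**
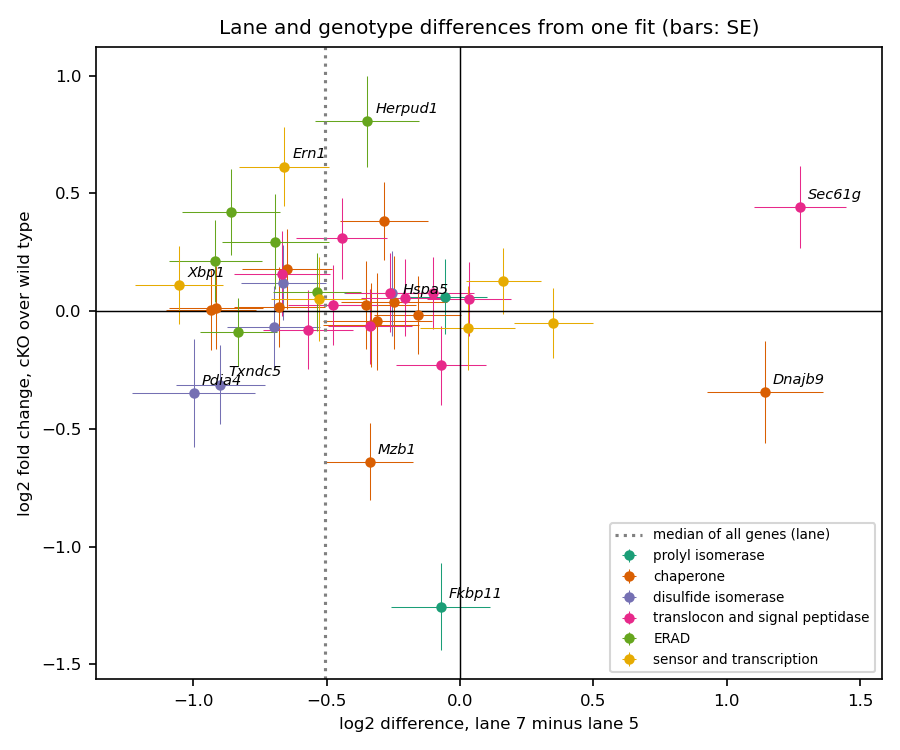
Lane difference (x axis, log2, lane 7 minus lane 5) and genotype difference (y axis, log2, cKO over wild type) of the 42 genes from a single fit, coloured by role, with standard errors; the dotted line is the lane median of all rows, -0.50. Most genes spread along the lane axis near zero genotype difference, whereas Fkbp11, Mzb1, Herpud1 and Ern1 stand off vertically.

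The wider ER system was read from a list of 98 further genes, of which 86 were tested. Without the lane term 0 were called in either direction in limma (median -0.03), and 5 of 86 had an unadjusted p under 0.05, where 10.7% of all rows did. With lane as a term 4 of 86 were called higher (Tram2, Sesn2, Txndc11 and Psat1) and 0 lower (median 0.05), where 9.59% of all rows were called higher and 1.19% lower, so calls were not more frequent than over all rows. The translocation gene Tram2, a relative of the translocating-chain protein TRAM, had 1.64, 2.14, 1.64 and 1.93 FPKM in cKO libraries, against 0.947, 0.729 and 0.611 FPKM in wild type libraries (log2 fold change 0.87, adjusted p 0.00593; 0.89 and 0.112 without the lane term). Txndc11, a thioredoxin-domain partner of EDEM proteins, had 19.2, 17.2, 17.1 and 25.2 FPKM in cKO libraries and 11.8, 12.5 and 12.7 FPKM in wild type libraries (0.68, adjusted p 0.0146). In both genes every cKO library was above every wild type library. Each wild type value of Tram2 was below the 1 FPKM filter, so Tram2 was tested only through its cKO libraries.

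The list for the PERK and ATF4 branch had mostly positive values, while Atf4 was at -0.07. It is not a list of ATF4 targets alone, since it also names Eif2ak3, the gene of PERK, and Eif2s1. Of the 11 tested genes of this list 10 had positive log2 fold changes. The median was 0.24 without the lane term and 0.31 with it, beside medians of -0.09 and -0.00 over all rows. Without the lane term 0 of the 11 were called, and with it 2 were called higher, where 9.59% of all rows were. After median centring without the lane term 2 were called higher, where 233 of all 10065 rows were. Sesn2, a stress-induced inhibitor of mTORC1, had 5.36, 3.19, 5.30 and 6.74 FPKM in cKO libraries, against 2.38, 2.74 and 2.17 FPKM in wild type libraries, with no overlap (0.96, adjusted p 0.00898 in limma with lane as a term). Psat1, an aminotransferase of serine synthesis, had 16.5, 9.79, 12.4 and 19.7 FPKM in cKO libraries, against 8.58, 8.76 and 7.53 FPKM in wild type libraries, also with no overlap (0.80, adjusted p 0.0193). Both calls were absent without the lane term (adjusted p 0.21 and 0.329). The calls of Sesn2 and Tram2 remained with each of the 7 libraries left out; that of Psat1 was lost without cKO library 3 or wild type library 3 (adjusted p up to 0.0863), and that of Txndc11 without wild type library 2 or 3 (adjusted p up to 0.0742). Monocyte and neutrophil markers were higher in the same cKO libraries, and their part in these values was not tested.

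In order of p in the lane-term fit, the next 4 of the 86 tested further ER genes did not pass. Atf3, a stress-induced repressor downstream of ATF4, had 3.62, 38.0, 61.7 and 11.5 FPKM in cKO and 42.9, 1.84 and 1.06 FPKM in wild type libraries, and Ppp1r15a (GADD34), which restores translation, had 65.1, 108, 173 and 52.6 FPKM in cKO and 93.2, 47.6 and 30.4 FPKM in wild type libraries. Both were highest in the lane 7 libraries of each genotype, with lane differences of 3.48 and 1.24. Stt3b, a catalytic subunit of the oligosaccharyltransferase, and Erlec1, an ER lectin of ERAD, had lane-term log2 fold changes of 0.61 and 0.43 (adjusted p 0.0853 and 0.0836 in limma). Erp29, a folding helper of secretory cells, ran against these, with 93.6, 77.1, 83.9 and 96.2 FPKM in cKO and 128, 125 and 109.9 FPKM in wild type libraries; its genotypes did not overlap, with a log2 fold change of -0.46 (adjusted p 0.428), and it was picked after its values were seen.

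**Figure D5:**
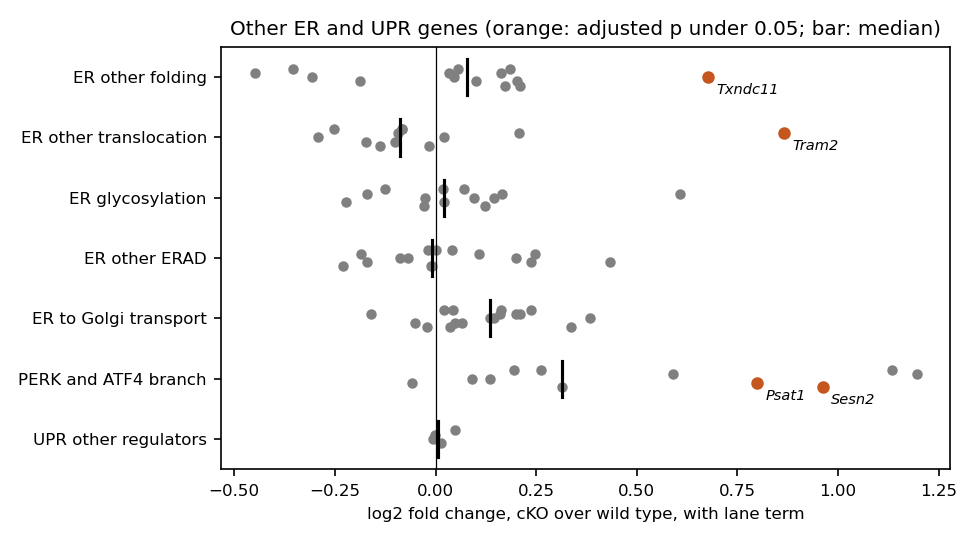
Log2 fold change of cKO over wild type with lane as a term for the 86 tested further ER genes, a row per list, with the median as a bar and genes at an adjusted p under 0.05 in orange. The PERK and ATF4 row has the rightmost median, 0.31, and the 4 called genes lie between 0.68 and 0.96.

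The authors' own comparison was made from the same libraries, so it is not independent of these fits. In the authors' deposited table the 2 arms are headed q1 and q2 without genotype. Of its rows with valid status, 10015 matched a gene tested here, which leaves out Creb3l2. Of these rows of the authors' deposited table, 1173 (11.7%) had a q-value under 0.05 with q2 above q1 and 111 (1.11%) with q2 below q1. Foxp1 had a negative statistic there (q2 below q1, q-value 0.0689 in the authors' deposited table). Of the 43 ER genes, 0 passed with q2 above q1 and 2 with q2 below it in the authors' deposited table: Fkbp11 (q-value 0.00363) and Mzb1 (q-value 0.0448). Herpud1 (q-value 0.0714) and Ern1 (q-value 0.153) did not pass in the authors' deposited table, where both had positive statistics.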

How the data were processed

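RNA-seq of CD43-depleted spleen cells was analysed in 4 cKO and 3 wild type libraries from the deposited expression table. Per the submitters' processing notes, the authors used TopHat2, Cufflinks and Cuffdiff, with no versions, and named the build mm9; gene positions in the files match GRCm38, which is the build printed here. The deposited values are FPKM (the table is titled RPKM), normalized by the authors to transcript length and library size, so depth is unknown and no counting interval can be given; whether counting used strand is not given in the sources used here. The authors' deposited comparison table holds a test statistic (a score) with p-values and q-values.

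Rows with valid status in all 7 libraries (23508 of 23845) and a mean of at least 1 FPKM (10065) were tested on log2(FPKM + 0.5) with limma 3.58.1 (lmFit, eBayes with trend; R 4.3.3), two-sided, Benjamini-Hochberg over all rows tested, threshold 0.05. A fold change on this scale understates that of low genes. In 27 rows a symbol had been turned into a number; none of them is reported. The fit without a lane term is the main one; the same fit with lane as a term is given beside it, also with each library left out, the last being added after the data had been seen. Exact permutation tests used scipy 1.17.1 and figures matplotlib 3.10.9. The code was tested on simulated data.

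The genes and lists were chosen with earlier results of these data known. Named genes are Foxp1, every gene called or with non-overlapping genotypes, the most abundant and the most positive and negative gene of each role group, Xbp1, Atf6, Ern1, Atf4 and Ddit3, and the 8 further ER genes with the smallest p in the lane-term fit; Edem1, Txndc5, Dnajb9 and others beside them were added as context. Promoters came from a RefSeq table of GRCm38.p6. The replicate numbers did not pair the libraries (deviations of same-numbered libraries correlated at -0.41, -0.50 and -0.69).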

Additional observations from a re-analysis of the deposited data

How the results depend on the processing

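No named gene changed sign past the threshold under any setting tried, but counts of calls moved with most of them; the cause was not tested. Genes called higher and lower over all rows (128 and 5) were 965 and 120 with lane as a term, 587 and 25 in lane 5 alone, 247 and 36 in lane 7 alone, 233 and 71 with median centring, 952 and 1276 with centring and lane, 814 and 1168 with quantile normalization and lane, 0 and 1 with no filter on low values, 6 and 0 with a mean of at least 5, and 54 and 1 with a pseudocount of 1. Lower calls were 1 with a pseudocount of 0.1, 3 without the trend and 29 with quantile normalization, and 217 were higher at an adjusted p of 0.1. Leaving out each library gave 0 to 216 higher and 0 to 4 lower.

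Of the 43 ER genes, 0 were called higher and 1 lower; with lane as a term the counts were 2 and 2, with centring 1 and 2, with centring and lane 2 and 3, with quantile normalization and lane 1 and 3, and 1 was higher in lane 5 alone. The 1 lower call, Fkbp11, became 0 with a pseudocount of 0.1 or 1, no filter, a mean of at least 5 (where it is not tested) or any library left out (0 to 0). With the lane term and each library left out, 0 to 3 were higher and 1 to 3 lower. Further ER genes called higher (0) were 4 with lane, 2 in lane 5, 1 in lane 7, 2 with centring, 1 with quantile normalization, 5 with centring and lane and 4 with quantile normalization and lane; lower calls (0) were 5 and 2 in these last settings. By lane, centring gave 11 higher and 8 lower against 2 and 20, quantile normalization 5 higher, and no filter 13 lower; leaving out libraries gave 2 to 3 and 17 to 20.

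Foxp1 passed the threshold with lane as a term (-0.75), centring (-0.81), quantile normalization (-0.80), centring and lane (-0.84) and quantile normalization and lane (-0.80). The median log2 fold change of the ER genes ran from -0.13 to 0.13 with each library left out. A fit with the replicate block called 0 rows higher and 0 lower, Fkbp11 included (adjusted p 0.177 in limma), but replicate numbers did not pair the libraries, and the block drops cKO library 4. Groups of 4 and 3 libraries of unknown depth limit what single genes can show.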

Other observations

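The lists around the ER genes differed little from all rows. Genes of transport from the ER to the Golgi (17 tested) had 9 positive and 8 negative log2 fold changes, median 0.02; with lane as a term 14 were positive, median 0.14, which became 9 positive and a median of 0.05 when median centring was added. Glycosylation genes (13 tested) had a median of -0.05, further ERAD genes (15 tested) -0.12, further folding genes (14 tested) -0.01 and further translocation genes (12 tested) -0.19, against -0.09 over all rows. In the translocation list 10 of 12 were negative without the lane term and 9 of 12 with it.

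The plasma cell markers did not move as a set, and 3 of them, picked after their values were seen, went different ways. Prdm1, the gene of the plasma cell repressor BLIMP1, had 1.18, 1.32, 1.14 and 1.57 FPKM in cKO libraries, against 0.782, 0.608 and 0.463 FPKM in wild type libraries. Its genotypes did not overlap (log2 fold change 0.69, adjusted p 0.235 in limma, and 0.68 and 0.0325 with lane as a term). Its mean over all libraries was 1.01 FPKM, so it passed the 1 FPKM filter narrowly and only through its cKO libraries. Irf4, an activator of Prdm1 in B cells, had 18.4, 23.2, 27.5 and 34.2 FPKM in cKO and 36.5, 30.6 and 30.6 FPKM in wild type libraries, a log2 fold change of -0.36 (adjusted p 0.76). Igj, the gene of the J chain of secreted IgM and IgA, had 50.4, 2.55, 7.66 and 44.4 FPKM in cKO and 14.3, 32.6 and 26.0 FPKM in wild type libraries; the lane 7 libraries were the 3 lowest. Prdm1 is also expressed outside the B lineage, in macrophages and T cells among others, and the part of such cells in its value was not tested.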
